A study of Mus musculus with 8 samples.

Results

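The response of naive CD3+ T cells to 3 h on immobilized antibodies (iAb) was read from 2 arrays of a series of 8, as the log2 value on the iAb array of 3 h minus the log2 value on the array of naive T cells, for every probe set that carries 1 gene symbol. These probe sets gave 22180 genes, and the 12241 of them that exceeded background with iAb, in naive T cells or in both were compared. The series asked how the shedding of microvilli, the finger-like protrusions of the T cell surface, relates to T cell activation. It profiled CD3+ T cells of C57BL/6J mice that were untreated or given latrunculin A (LatA, a toxin that blocks actin filament assembly). Others were stimulated by soluble antibodies (sAb), by sAb with LatA (sAb+LatA), or by iAb, and were taken at 3 h and 24 h. According to the methods, the cells of 24 h were also stimulated for 3 h, then washed and cultured further until 24 h. All of these cells came from spleens and lymph nodes and were purified by removing other cells with magnetic beads. The naive cells are labelled as steady state, and the iAb cells lay for 3 h on plates coated with antibodies to CD3 and CD28. The methods give 8 weeks as the general age of the mice and do not say how many mice were pooled for an array. The naive cells stand for 0 h, so 3 h of culture and stimulation cannot be told apart between these arrays. Each condition has 1 array, so no difference has a replicate error or a test, and the small number of arrays sets how precise the values can be.

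Antibodies to CD3 bind the signalling chains of the T cell receptor (TCR), and antibodies to CD28 supply the costimulatory signal that an antigen-presenting cell would give. The receptor sets off calcium, MAP kinase and NF-kB signalling, which switches on cytokine and surface receptor genes within hours, while the cell leaves quiescence, enlarges and prepares to divide. Naive T cells stay quiescent and recirculate between blood and lymphoid organs under a set of transcription factors, homing receptors and the interleukin-7 receptor.

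Among genes compared, most chemokine, cytokine and costimulatory receptor genes, interferon-inducible GTPases and the factors that build ribosomes were higher with iAb than in naive T cells. For chemokines and cytokines this depended on the background filter. Their medians were 0.88 and 0.94 among genes compared, but 0.13 and 0.43 over all 17 and 29 genes measured. Most genes of quiescence and homing and most transcription factors of the naive state were lower, as were 10 of 23 genes of PI3-kinase signalling. Genes of the mature ribosome, DNA replication and mitosis mostly lay within 1.5-fold of their values in naive T cells, as did 72.4% of all genes compared.

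At a threshold of 1.5-fold, 1835 of the 12241 genes (15%) were higher with iAb and 1545 (12.6%) were lower, while 8861 (72.4%) stayed within it. At least 4-fold apart were 157 genes that were higher (1.28%) and 68 that were lower (0.556%). The median difference over all genes compared was -0.03 on the log2 scale, and the median size of a difference was 0.32. Background was taken from 1443 chemosensory receptor genes (smell, taste and pheromone), as the value that 95% of them did not exceed, 4.99 on the naive array and 4.85 on the iAb array. A fold change of a gene below background on one of these arrays was taken against that background value and is written as "at least", while counts, medians and rankings use the measured values. Of these receptor genes, 1.94% were at least 1.5-fold higher and 3.47% lower with iAb. LatA alone, set against the same naive array, gave 0.919% of genes higher and 1.14% lower, with a median size of 0.14. The share past the threshold depended on the expression level. Among genes with a mean over the 8 arrays of 5 to 6, 5.89% were higher and 7.08% lower, and among those of 8 to 9, 21.9% were higher and 16.5% lower. All 10 T cell markers measured were above background on both arrays, with the CD3 subunit Cd3g at 11.47 and 11.26. Fewer cells of a type and less RNA per cell cannot be told apart in such bulk samples. In what follows, brackets give the log2 value on the naive array, the log2 value on the iAb array of 3 h, and the fold between them.

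**Figure D1:**
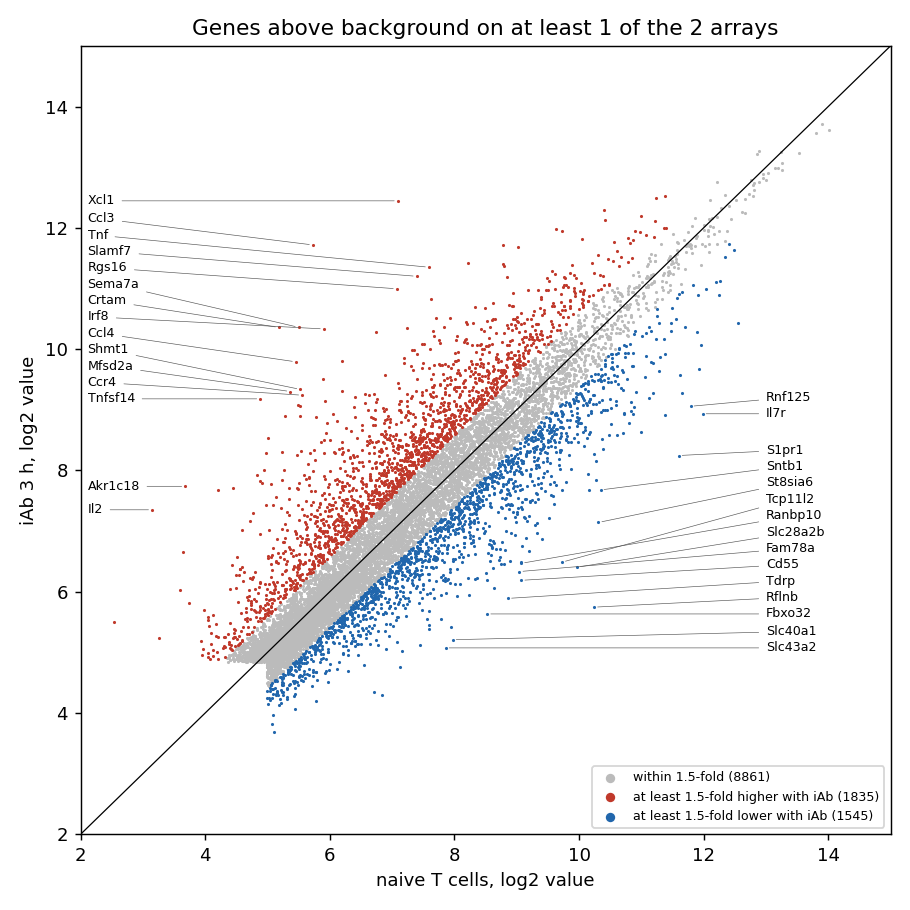
Log2 value of each of the 12241 genes compared on the naive array (x axis) and on the iAb array of 3 h (y axis). Red points are at least 1.5-fold higher with iAb (1835), blue points at least 1.5-fold lower (1545) and grey points within 1.5-fold (8861), the line marks equal values, and names mark the 15 most positive and the 15 most negative differences.

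Chemokines, which call other immune cells to the site of activation, held the largest differences. Ccl3, which attracts monocytes and T cells, was at 5.73 on the naive array and 11.72 on the iAb array, 63.5-fold higher. Xcl1, which attracts cross-presenting dendritic cells, was 40.9-fold higher (7.09 and 12.45). Ccl4, a close relative of Ccl3, was 20.2-fold higher (5.46 and 9.79). These were the first, second and sixth largest positive differences among the named genes. Of 17 chemokine genes measured, 11 were compared, 6 were at least 1.5-fold higher and 1 was lower, with a median of 0.88 against -0.03 over all genes. The CXCR3 ligands Cxcl10 (6.00 to 8.50, 5.68-fold) and Cxcl9 (5.48 to 7.69, 4.63-fold), known as interferon-gamma targets, were among those higher. The chemokine that was lower was Ccl5, which memory and effector T cells store (10.06 to 9.43, 1.55-fold). Over all 17 genes, with those below background on both arrays included, the median was 0.13.

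Cytokine genes took the same direction: of 22 compared, 12 were at least 1.5-fold higher and 0 were lower, with a median of 0.94. The median was 0.43 over all 29 genes measured and 0.42 over the 15 above background on both arrays. Il2, the growth factor of activated T cells, was below background on the naive array at 3.15 and stood at 7.35 with iAb, at least 5.13-fold higher. Tnf, a pro-inflammatory cytokine, was 13.5-fold higher (7.59 to 11.35). Csf2, the granulocyte-macrophage growth factor (4.20 to 7.68, at least 6.47-fold), and Ifng, the defining cytokine of type 1 helper and cytotoxic cells (at least 8.05-fold higher), were also below background in naive T cells and above it with iAb. Genes of several helper lineages were higher side by side in this mixed population of CD4+ and CD8+ cells. Il4 and Il13, of the type 2 lineage, were 3.30-fold and at least 2.25-fold higher. Il17f and Il17a, of the type 17 lineage, were 5.08-fold and at least 1.14-fold higher. The other members past the threshold were the leukemia inhibitory factor Lif (5.93 to 8.62, 6.44-fold), lymphotoxin alpha Lta (5.68 to 8.29, 6.11-fold), macrophage migration inhibitory factor Mif (8.43 to 10.08, 3.14-fold) and, least of them, Tgfb1 (9.79 to 10.41, 1.53-fold). Ltb, Il16 and Il10 differed by -0.38, -0.35 and -0.26 on the log2 scale, within the threshold.

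The promoters of 2 of the 15 genes with the highest difference are shown because they hold the letters of motifs through which calcium and MAP kinase signalling act. The 250 bases before the start of Il2 (chr3:37125955-37126204, minus strand) and of Slamf7 (chr1:171649000-171649249, minus strand) were taken from RefSeq on GRCm38.p6, each written along its gene's strand. Capitals mark matches on either strand to TGGAAA, the core bound by NFAT, and to TGANTCA, the site of AP-1.
Il2: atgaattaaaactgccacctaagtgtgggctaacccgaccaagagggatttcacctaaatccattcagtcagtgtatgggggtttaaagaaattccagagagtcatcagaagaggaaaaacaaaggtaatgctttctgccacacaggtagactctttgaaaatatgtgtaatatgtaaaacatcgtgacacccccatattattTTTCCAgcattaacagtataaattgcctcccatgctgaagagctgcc
Slamf7: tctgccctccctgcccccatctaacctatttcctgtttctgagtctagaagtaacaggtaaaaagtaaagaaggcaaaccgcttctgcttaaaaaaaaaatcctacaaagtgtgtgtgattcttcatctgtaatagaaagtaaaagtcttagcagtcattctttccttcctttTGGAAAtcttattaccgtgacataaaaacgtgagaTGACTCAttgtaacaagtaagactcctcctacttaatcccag
The Il2 window holds 1 match to TGGAAA, on the opposite strand, and the Slamf7 window holds 1 match to each motif. Of the 15 genes with the highest difference, 13 have a promoter in the table. TGGAAA was found in 4 of these 13 (30.8%), those of Tnfsf14, Il2, Slamf7 and Tnf, in 18.7% of all 27025 promoters and in 14.9% of those of genes compared. TGANTCA was found in 3 (23.1%), those of Tnfsf14, Slamf7 and Ccr4, in 6.87% of all promoters and in 4.44% of those of genes compared. Among the 18 cytokine genes with a promoter, 8 (44.4%) hold TGGAAA. The NF-kB consensus and the cAMP response element TGACGTCA were in none of the 13 and in 7.01% and 1.62% of all promoters. The NF-kB consensus was in 5 of the 18 cytokine promoters (27.8%) and in 4 of 8 chemokine promoters (50%). Each match is a description of letters in this window and not a site shown to be bound.

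Values on the other 6 arrays place the extremes in the series. Ccl3 read 5.73 on the naive array and 6.56 on the LatA array. For that gene the arrays of 3 h read 8.75 with sAb, 10.20 with sAb+LatA and 11.72 with iAb. Those of 24 h read 9.13, 9.82 and 10.05 in the same order. Sema7a, a GPI-anchored semaphorin that binds integrins, read 7.29, 9.04 and 10.36 at 3 h and 7.10, 7.43 and 7.12 at 24 h. For 14 of the 15 genes with the highest difference the iAb array of 3 h was the highest of the 8. The exception was Il2, with its highest value on the sAb+LatA array of 3 h (7.98). For 14 of the 15 genes with the lowest difference the iAb array of 3 h was the lowest of the 8. The exception there was Slc40a1, the cellular iron exporter, which read 3.65 on the iAb array of 24 h. The genes were chosen on the iAb array of 3 h, and that choice by itself favours an extreme value there.

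**Figure D2:**
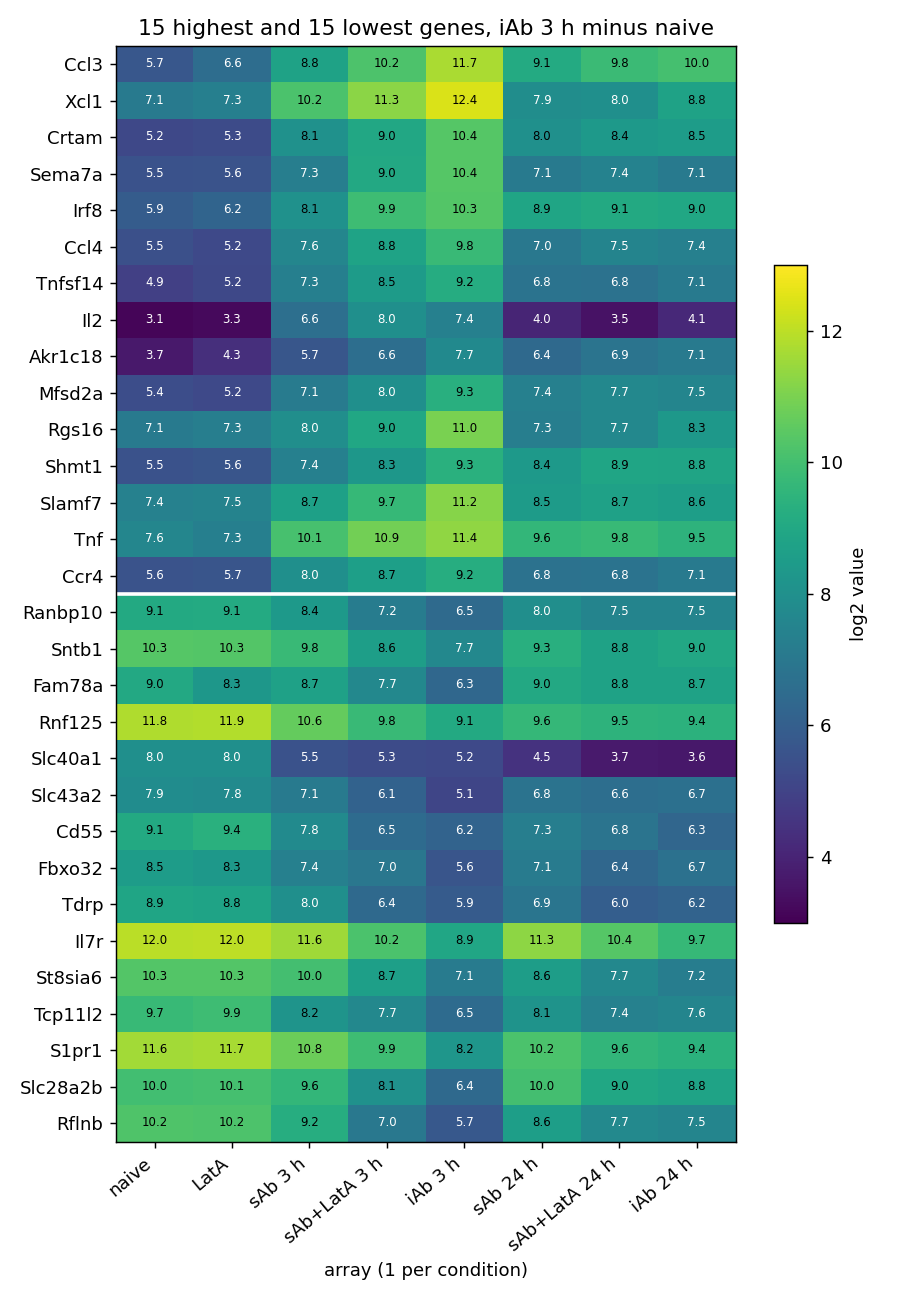
Log2 values, printed and coloured, of the genes with the 15 most positive differences (above the white line) and the 15 most negative (below it) on the 8 arrays, 1 per condition. Values of the upper genes peak on the iAb array of 3 h, apart from Il2, and values of the lower genes are lowest there, apart from Slc40a1.

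Surface receptors and ligands of the costimulatory and tumor necrosis factor families were higher in 20 of 30 genes compared and lower in 0, with a median of 0.83. Tnfsf14, which encodes LIGHT, was below background on the naive array and at least 18.2-fold higher with iAb (4.88 to 9.18). Cd160, a receptor for HVEM, the partner of LIGHT, was 12.2-fold higher (5.28 to 8.89). Tnfsf11, which encodes RANKL (7.76 to 10.10, 5.06-fold), Cd40lg, the helper signal to B cells (8.18 to 10.17, 3.96-fold), and the transferrin receptor Tfrc, which brings in iron (6.89 to 9.57, 6.43-fold), were higher too. The activation markers Tnfrsf9, which encodes CD137 (9.73 to 11.95, 4.67-fold), and Cd69 (10.42 to 12.12, 3.26-fold) were higher from naive values well above background. Cd28 itself differed by -0.30 and its relative Icos by 0.33.

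Adhesion receptors split into higher and lower members. Crtam, an immunoglobulin-family receptor of activated T cells, was at 5.18 on the naive array and 10.36 on the iAb array, 36.1-fold higher, and Sema7a was 29.0-fold higher (5.50 to 10.36). Most SLAM receptors bind their own kind on neighbouring lymphocytes. Slamf7 (7.39 to 11.20, 14.0-fold), Slamf1 (8.79 to 11.38, 6.00-fold) and Ly9 (8.75 to 9.66, 1.87-fold) of that family were higher. Slamf6 (9.93 to 9.14, 1.72-fold) and the adaptor that serves the family, Sh2d1a (8.06 to 7.12, 1.92-fold), were lower. Among integrins, Itga4 (10.09 to 8.67, 2.68-fold) and Itgb7 (8.40 to 6.88, 2.86-fold), which pair as a gut-homing receptor, were both lower, while Itgb2, a chain of LFA-1, was 1.56-fold higher. Selplg, a selectin ligand that sits on microvilli, was 2.04-fold lower.

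Inhibitory receptors and their ligands had 5 higher and 4 lower of 16. The ligands Cd274, which encodes PD-L1 (7.83 to 10.37, 5.79-fold), and Cd200 (5.73 to 7.99, 4.77-fold) were higher. So were the inhibitory receptors Btla (8.55 to 10.06, 2.85-fold) and Vsir (10.01 to 10.96, 1.93-fold). Ctla4, which competes with CD28 for its ligands, was lower (9.42 to 8.37, 2.07-fold), and Pdcd1, which encodes PD-1, differed by -0.19.

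Cytokine receptors differed by ligand. The high-affinity chains for interleukin-2, Il2ra (8.21 to 11.43, 9.28-fold), and for interleukin-15, Il15ra (5.54 to 8.31, 6.83-fold), were higher, as was Il12rb1 (5.73 to 7.47, 3.35-fold). Il7r, the receptor for the survival cytokine of naive T cells, was 8.28-fold lower (11.98 to 8.93). Both chains of the interferon-gamma receptor, Ifngr1 (12.25 to 10.88, 2.58-fold) and Ifngr2 (9.24 to 7.82, 2.68-fold), were lower. The receptor chains for type I interferon, Ifnar1 (10.23 to 9.25, 1.98-fold), and for TGF-beta, Tgfbr2 (10.52 to 8.76, 3.38-fold), were lower as well. Over 27 receptor chains, 5 were higher and 7 lower (median -0.31). Below these receptors, the feedback inhibitors Socs1 (6.57 to 9.26, 6.45-fold) and Cish (6.56 to 9.12, 5.87-fold) were higher. Socs2, of the same family, was higher (4.77 to 6.25, at least 2.39-fold) and Socs3 lower (7.24 to 6.52, 1.65-fold), but another probe set of Socs2 differed by 0.17. The transducers Stat5b (11.06 to 9.53, 2.87-fold) and Stat4 (11.56 to 10.50, 2.08-fold) were lower.

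Receptors for homing and migration were exchanged. Ccr4, which guides T cells to skin, was 12.8-fold higher (5.56 to 9.24). Ccr8, of type 2 and regulatory cells (7.89 to 9.72, 3.54-fold), the prostaglandin receptor Ptger2 (5.31 to 7.02, 3.25-fold) and the oxysterol receptor Gpr183 (9.12 to 10.20, 2.11-fold) were higher as well. S1pr1, the sphingosine-1-phosphate receptor that lets T cells leave lymphoid organs, was 10.2-fold lower (11.60 to 8.25). Its relative S1pr4 (8.91 to 6.97, 3.83-fold), the lymph node homing receptor Ccr7 (11.90 to 10.28, 3.06-fold) and the CXCL12 receptor Cxcr4 (10.10 to 8.71, 2.63-fold) were lower. Counts were 6 higher and 5 lower of 21, around a median of 0.01. Rgs16, which shuts off G proteins below such receptors, was 15.1-fold higher (7.08 to 11.00), and its relative Rgs2 was 3.28-fold lower.

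Among transcription factors that the TCR induces, the EGR and NR4A families were higher. Egr1, Egr3 and Egr2, zinc finger factors downstream of MAP kinases, were 6.25-fold, 6.01-fold and 4.77-fold higher. Nr4a2, Nr4a1 and Nr4a3, orphan nuclear receptors used as reporters of TCR signal, were 3.09-fold, 2.22-fold and 1.94-fold higher. Nr4a1 read 11.38 and Nr4a3 10.97 on the naive array. Nfatc1, the inducible NFAT member, was 2.23-fold higher and Nfatc3 2.08-fold lower. The list of these families had 8 higher and 1 lower of 15 (median 0.96, and 0.68 over all 16 genes measured).

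The Fos and Jun genes, whose products form AP-1, were not higher at 3 h. Fosb was 3.55-fold lower (8.63 to 6.80) and Fosl2 1.62-fold lower (10.75 to 10.06). Fos, Junb and Jun differed by -0.56, -0.48 and 0.39, within the threshold. Dusp1, an immediate early phosphatase of MAP kinases, was lower (9.98 to 8.47, 2.85-fold). Other bZIP factors were higher, namely the stress-induced Atf3 (7.59 to 9.68, 4.28-fold), the heme-regulated repressor Bach1 (7.65 to 8.98, 2.51-fold) and its small partner Mafk (7.89 to 8.81, 1.90-fold). The median over 14 bZIP genes was 0.21, and -0.15 with the LatA array in place of the naive array. Jun read 8.60 on the naive array and 9.94 on the LatA array.

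Of 22 NF-kB genes, 5 were higher (22.7%) and 3 lower (13.6%), against 15% and 12.6% over all genes. The atypical inhibitor Nfkbid (9.46 to 10.98, 2.85-fold), the paracaspase Malt1, which links the TCR to the pathway (9.78 to 11.06, 2.42-fold), and Tnip2 (6.28 to 7.92, 3.11-fold) were higher. Rel, the subunit most tied to T cell activation, was just past the threshold (11.40 to 11.99, 1.51-fold). The negative regulators Tnip1 (9.38 to 7.71, 3.19-fold) and Tnfaip3 (11.49 to 10.68, 1.76-fold) were lower, and Rela and the inhibitor Nfkbia differed by 0.12 and -0.12.

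Of 23 lineage factors, 7 were higher and 4 lower. Tbx21, which encodes the type 1 factor T-bet, was 11.7-fold higher (6.74 to 10.28), and its paralog Eomes 3.87-fold (6.89 to 8.84). Foxp3 of regulatory T cells (9.68 to 10.40, 1.65-fold) and Gata3 of type 2 cells (8.19 to 8.91, 1.65-fold) were higher by smaller amounts. Rora (7.58 to 6.68, 1.85-fold) and Zeb1 (9.41 to 8.35, 2.08-fold) were lower. Among interferon regulatory factors, Irf8 had the largest difference (5.90 to 10.33, 21.5-fold), and a dimmer probe set of the same gene differed by 1.97 on the log2 scale. Irf4, which the TCR induces in graded fashion, was also higher (9.03 to 11.68, 6.29-fold). Gzmb, the granule protease that starts target cell death, was 11.6-fold higher (5.52 to 9.06), and Prf1, which forms the pore, 2.20-fold (8.08 to 9.22). Of 15 granule genes, 7 were higher and 0 were lower.

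Interferon-inducible GTPases had the highest median of all lists, which were chosen with earlier results of these data known. Guanylate-binding proteins and immunity-related GTPases attack the vacuoles of intracellular pathogens and are known as targets of interferon-gamma. Of 12 compared, 11 were at least 1.5-fold higher and 0 were lower, with a median of 1.85. Gbp5, which also promotes inflammasome assembly, was at 5.88 on the naive array and 9.51 on the iAb array, 12.4-fold higher. Gbp11 was 11.5-fold higher (5.01 to 8.53). Iigp1, Gbp7 and Gbp4 were 6.25-fold, 6.16-fold and 5.89-fold higher. Irgm2, at a difference of 0.38, was the member within the threshold. These genes are close paralogs, and how well the probe sets separate their transcripts was not tested.

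The promoters of 4 of these genes are shown because every member with a promoter in the table shares a motif. The windows are the 250 bases before the start of Gbp5 (chr3:142496684-142496933, plus strand), Gbp7 (chr3:142530086-142530335, plus strand), Gbp3 (chr3:142559794-142560043, plus strand) and Irgm1 (chr11:48871421-48871670, minus strand), from RefSeq on GRCm38.p6 and written along each gene's strand. Capitals mark matches on either strand to GAAANNGAAA, the core of the interferon-stimulated response element bound by IRF and STAT complexes, and to TTCNNNGAA, the site of STAT dimers. Both motifs were chosen after the values were seen.
Gbp5: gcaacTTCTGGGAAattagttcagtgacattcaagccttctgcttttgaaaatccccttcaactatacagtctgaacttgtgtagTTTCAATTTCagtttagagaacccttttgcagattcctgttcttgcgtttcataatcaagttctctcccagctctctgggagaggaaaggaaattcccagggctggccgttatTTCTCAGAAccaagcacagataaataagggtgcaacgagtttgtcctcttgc
Gbp7: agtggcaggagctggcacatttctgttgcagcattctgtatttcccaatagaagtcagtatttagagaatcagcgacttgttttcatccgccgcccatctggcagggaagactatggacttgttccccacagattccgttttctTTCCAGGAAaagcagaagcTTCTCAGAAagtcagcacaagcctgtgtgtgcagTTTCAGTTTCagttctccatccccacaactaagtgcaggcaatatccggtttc
Gbp3: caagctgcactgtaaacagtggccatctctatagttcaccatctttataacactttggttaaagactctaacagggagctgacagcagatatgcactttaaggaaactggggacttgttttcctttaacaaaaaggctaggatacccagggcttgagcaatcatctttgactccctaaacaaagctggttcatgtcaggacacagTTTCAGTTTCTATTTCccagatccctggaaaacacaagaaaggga
Irgm1: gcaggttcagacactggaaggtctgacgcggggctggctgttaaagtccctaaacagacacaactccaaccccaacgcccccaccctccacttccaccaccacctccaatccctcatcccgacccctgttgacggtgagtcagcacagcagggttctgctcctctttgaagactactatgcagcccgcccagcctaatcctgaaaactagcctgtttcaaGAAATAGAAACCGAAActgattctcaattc
GAAANNGAAA was found in 6 of 6 promoters of this list and in 3.04% of all promoters, and TTCNNNGAA in 4 of 6 and in 7.18% of all. Gbp5 and Gbp7 hold 1 match to the response element and 2 to the STAT site, while Gbp3 and Irgm1 hold 2 overlapping matches to the response element and none to the STAT site. Irgm2, whose value was within the threshold, holds 1 match to each. Of the 22 promoters of antiviral interferon-stimulated genes, 9 (40.9%) hold GAAANNGAAA.

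The antiviral interferon-stimulated genes had a lower median, 0.31, with 10 of 30 higher and 2 lower. Usp18, which removes the ubiquitin-like ISG15 (6.51 to 8.75, 4.73-fold), the ADP-ribosyltransferase Parp14 (8.61 to 10.09, 2.78-fold) and the nucleic acid sensor Zbp1 (8.02 to 9.38, 2.58-fold) were higher. Ifit3, Rsad2 and Ifit2, known for their strong response to type I interferon, differed by 0.04, -0.09 and -0.20. In the MHC class I pathway, 6 of 15 genes were higher, led by the peptide-trimming enzyme Erap1 (9.12 to 10.43, 2.48-fold), and the light chain B2m read 13.24 and 13.24.

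Signalling proteins next to the receptor were split, 11 higher and 9 lower of 36. The adaptors Tespa1 (7.31 to 9.73, 5.35-fold) and Lcp2, which encodes SLP-76 (10.40 to 12.29, 3.70-fold), were higher. The phosphatases Ubash3b (6.34 to 8.65, 4.95-fold) and Ptpn6, which encodes SHP-1 (8.30 to 10.44, 4.39-fold), both brakes on the receptor, were higher too. The adaptors Sla2 (9.73 to 7.67, 4.17-fold) and Grap2 (10.80 to 8.78, 4.05-fold) and the GTPase-activating protein Rasa3 (10.87 to 8.93, 3.83-fold) were lower. Related genes thus took opposite directions, with Ubash3a 2.15-fold lower beside Ubash3b, and Sla 2.69-fold higher beside Sla2. The kinase Zap70, which binds the activated receptor, was 2.25-fold higher (9.13 to 10.30). MAP kinase feedback did likewise: Spry1 (6.20 to 9.80, 12.1-fold), Spred1 (6.26 to 8.70, 5.45-fold) and Dusp6 (7.75 to 10.16, 5.32-fold), inhibitors of the ERK branch, were higher. Dusp10, which acts on the JNK and p38 branches, was lower (10.73 to 8.94, 3.45-fold). Of the receptor complex, Cd3g and Cd3d differed by -0.21 and -0.37, Cd4 by -0.51 and Cd8b1 by -0.04, while Cd8a was 2.32-fold higher.

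Myc, the transcription factor that drives growth of activated T cells, was 7.70-fold higher (8.77 to 11.72). Its antagonists Mxd4 (9.07 to 6.49, 5.94-fold), Mxi1 (8.31 to 6.75, 2.95-fold) and Mxd1 (9.96 to 9.26, 1.63-fold) were lower, and Max, the partner they share, differed by 0.28.

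Nucleolar factors that build ribosomes were higher almost without exception. Of 83 compared, 76 were at least 1.5-fold higher and 0 were lower, and the median was 1.36. Rrp1b, a nucleolar protein (5.93 to 9.15, 9.33-fold), and Rpf2, which brings in the 5S particle (7.19 to 9.86, 6.34-fold), led the list. The pseudouridine synthase Dkc1 (7.48 to 10.09, 6.10-fold) and the nucleolar GTPase Gnl3 (8.34 to 10.69, 5.13-fold) followed among the genes named here. The members within the threshold were Utp3, Rrp1, Npm1, Emg1, Rpf1, Rrp36 and Ddx52, between -0.03 and 0.56. Polr1b, a core subunit of RNA polymerase I, which makes ribosomal RNA, was 6.47-fold higher (6.12 to 8.81). Polr3g, Polr3e and Polr3d of RNA polymerase III, which makes transfer and 5S RNA, were 3.38-fold, 3.05-fold and 2.99-fold higher. Maf1, the repressor of RNA polymerase III, was the single gene of 29 in the polymerase list that was lower (9.08 to 7.47, 3.05-fold). Promoters of the biogenesis genes held CACGTG, the palindromic E-box that Myc binds and a motif chosen after the values were seen, in 6 of 72 (8.33%). The share was 8.28% among promoters of genes compared and 6.05% among all promoters.

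Structural ribosomal proteins were different. Of 56 compared, 6 were higher, 0 were lower and 50 lay within 1.5-fold, with a median of -0.05. The members past the threshold were Rps27l (6.36 to 7.54, 2.25-fold), Rpl11 (5.50 to 6.44, 1.91-fold), Rpl37 (7.15 to 8.01, 1.82-fold), Rplp2 (4.61 to 5.42, at least 1.35-fold), Rpl34 (7.85 to 8.57, 1.65-fold) and Rps20 (6.49 to 7.09, 1.52-fold). With the LatA array as reference, Rps27l and Rps20 no longer reached it. These genes have many retrocopies, and which copies the probe sets read was not tested.

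Translation factors lay between, with 20 of 48 higher and 0 lower. Eef1e1, a scaffold of the tRNA synthetase complex (8.85 to 11.18, 5.03-fold), the exchange factor subunit Eif2b3 (6.09 to 8.29, 4.61-fold) and the cap-binding protein Eif4e (8.97 to 10.40, 2.69-fold) were higher. The elongation factors Eef1a1 and Eef2 differed by -0.12 and -0.18. Aminoacyl-tRNA synthetases were higher in 20 of 35 and lower in 0, led by Yars2 (6.63 to 8.29, 3.17-fold), Rars (8.66 to 10.27, 3.05-fold) and Wars (8.05 to 9.66, 3.04-fold).

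**Figure D3:**
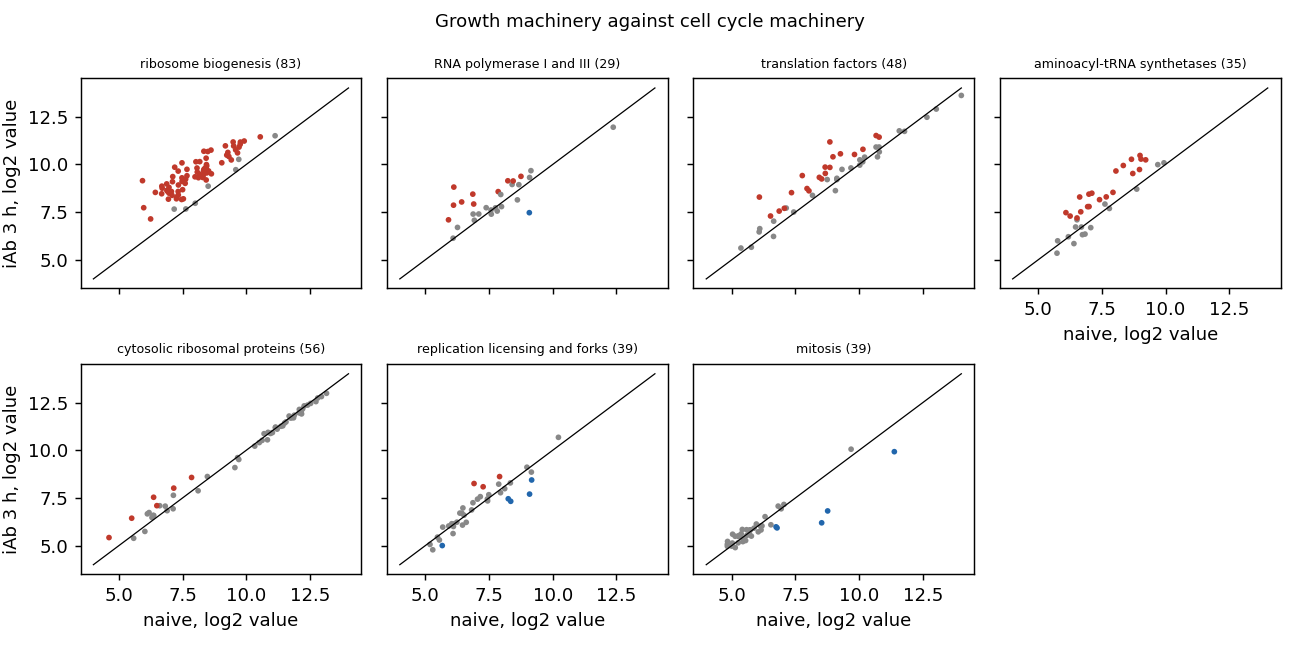
Log2 value of each member of 7 gene lists on the naive array (x axis) and the iAb array of 3 h (y axis), with the number of members compared in each title. Red points are at least 1.5-fold higher, blue points at least 1.5-fold lower, and the line marks equal values. Of 83 ribosome biogenesis genes 76 are red, while 50 of 56 ribosomal protein genes are grey and no mitosis gene is red.

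One-carbon and nucleotide synthesis supplied 20 higher and 3 lower genes of 40. Shmt1, which passes carbon from serine to folate in the cytosol, was 14.0-fold higher (5.53 to 9.34). The folate carrier Slc19a1 was 6.68-fold higher, and the folate enzymes Mthfd1 and Mthfd2 were 5.20-fold and 4.31-fold higher. The CTP synthase Ctps was higher (6.38 to 9.05, 6.33-fold) and its paralog Ctps2 lower (8.37 to 7.03, 2.52-fold). The salvage kinase Dck (8.48 to 6.97, 2.85-fold) and the p53-induced ribonucleotide reductase subunit Rrm2b (7.76 to 7.15, 1.53-fold) were the other members that were lower.

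Of 24 genes of amino acid supply and of ATF4, the factor of amino acid stress, 10 were higher and 6 lower. Higher transporters were Slc7a1 for arginine (7.93 to 10.52, 6.04-fold), Slc7a5 for leucine (8.88 to 10.72, 3.58-fold) and Slc1a5 for glutamine (8.91 to 10.41, 2.84-fold). Mfsd2a, a transporter of lysophospholipids, was 15.3-fold higher (5.37 to 9.30). Among targets of ATF4, Psat1, which makes serine (5.90 to 8.50, 6.03-fold), and Asns, which makes asparagine (4.88 to 6.95, at least 3.90-fold), were higher. Trib3 (6.66 to 5.58, 2.12-fold), Sesn2 (6.53 to 5.61, 1.89-fold), Ddit4 (6.65 to 5.83, 1.76-fold) and Ddit3 (7.42 to 6.73, 1.62-fold), stress and mTOR regulators, were lower. Srm, the spermidine synthase, was 9.17-fold higher (7.62 to 10.82), while Odc1, the entry enzyme of polyamine synthesis, differed by -0.14.

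Glycolysis genes were higher in 8 of 24 and lower in 2. The hexokinases Hk2 (5.23 to 7.84, 6.12-fold) and Hk1 (6.84 to 8.10, 2.39-fold) and the lactate exporter Slc16a1 (8.84 to 10.40, 2.94-fold) were higher. Pgam1 (8.07 to 9.38, 2.48-fold) and Ldha, which makes lactate (7.45 to 8.54, 2.12-fold), were also higher, with Gapdh at -0.01. Pdk1 was 1.84-fold lower.

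Of 26 genes of sterol synthesis and its regulation, 7 were higher and 5 lower. The sterol synthesis enzymes Sqle (5.90 to 8.28, 5.20-fold), Hsd17b7 (5.98 to 7.77, 3.45-fold), Cyp51 (7.22 to 8.91, 3.21-fold) and Lss (5.85 to 7.44, 3.03-fold) were higher. The cholesterol exporters Abcg1 (9.30 to 7.11, 4.57-fold) and Abca1 (8.04 to 5.93, 4.31-fold) and the ligase Mylip, which removes the LDL receptor (9.54 to 7.91, 3.10-fold), all known targets of the sterol sensor LXR, were lower. Fatty acid synthesis genes were higher in 8 of 19 and lower in 3. Fasn (8.48 to 9.99, 2.87-fold) and Acaca (6.70 to 7.51, 1.75-fold) were higher, while Acss2, which makes acetyl-CoA from acetate (6.90 to 5.06, 3.58-fold), and the elongase Elovl5 (10.68 to 9.37, 2.49-fold) were lower. Of 31 genes of fatty acid oxidation, 1 was higher and 9 were lower. Cpt1a, the gate of the carnitine shuttle, was lower (7.43 to 6.21, 2.32-fold), and the member that was higher was the carrier of the same shuttle, Slc25a20 (6.87 to 8.15, 2.42-fold).

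Mitochondrial import genes were higher in 15 of 26 and lower in 0, led by Timm9 (5.34 to 7.53, 4.55-fold) and the import channel Tomm40 (7.85 to 9.75, 3.74-fold). Of 69 genes of the respiratory chain and ATP synthase, 56 lay within the threshold. The 11 that were higher (15.9%) are close to the 15% over all genes, and 2 were lower (2.9%, against 12.6%). Cycs, which encodes cytochrome c, was 2.42-fold higher (9.75 to 11.02).

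Cytosolic chaperones were higher in 18 of 26, among them Hsph1 (7.76 to 9.41, 3.12-fold) and the chaperonin subunit Cct3 (8.99 to 10.36, 2.57-fold). The 3 that were lower were stress-inducible: Bag3 (7.24 to 6.34, 1.86-fold), Hspa1a (5.60 to 4.89, 1.64-fold) and its near-identical copy Hspa1b (6.23 to 5.52, 1.63-fold). In the endoplasmic reticulum, 6 of 23 chaperone genes were higher, led by the stress sensor Atf6 (7.30 to 8.55, 2.37-fold). Proteasome genes were higher in 19 of 45 and lower in 0, foremost the assembly factors Psmg2 (6.62 to 8.45, 3.54-fold), Psmg1 (5.82 to 7.40, 2.98-fold) and Pomp (8.14 to 9.44, 2.46-fold). Nuclear transport genes were higher in 25 of 46, among them the importins Ipo4 (6.75 to 9.18, 5.39-fold) and Ipo5 (8.92 to 10.71, 3.48-fold). Another probe set of Ipo4 differed by 0.15, so its difference is uncertain. The 2 transport receptors that were lower were Kpna4 (9.95 to 9.21, 1.67-fold) and the exportin Xpo1 (9.22 to 8.51, 1.64-fold).

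Cell cycle genes were higher only among those of entry into the cycle and a few replication genes. Ccnd2, the cyclin of early G1, was 5.07-fold higher (9.63 to 11.97), with its kinases Cdk6 (7.25 to 8.83, 2.98-fold) and Cdk4 (8.16 to 9.65, 2.81-fold). The inhibitors Cdkn1b, which encodes p27 (10.15 to 7.67, 5.59-fold), and Cdkn2d (7.56 to 5.96, 3.03-fold) and the pocket protein Rbl2 (9.28 to 7.76, 2.87-fold) were lower. Of 39 replication genes, 3 were higher (7.69%) and 5 lower (12.8%), against 15% and 12.6% over all genes. Pold2, of DNA polymerase delta (6.91 to 8.26, 2.54-fold), was among the former. The helicase subunit Mcm7 (8.35 to 7.32, 2.04-fold) and the single-strand binding protein Rpa1 (9.09 to 7.70, 2.62-fold) were among the latter. Of 53 mitosis genes measured, 14 were below background on both arrays. Of the 39 compared, 0 were higher, against 15% over all genes, and 5 (12.8%) were lower, close to the 12.6% over all genes. The lower mitosis genes were the kinetochore gene Ndc80 (8.53 to 6.20, 5.04-fold), the centromeric histone Cenpa (8.76 to 6.82, 3.85-fold) and Racgap1 of the dividing furrow (6.74 to 5.98, 1.69-fold). The others were the condensin subunits Smc4 (11.38 to 9.92, 2.74-fold) and Ncapd2 (6.78 to 5.93, 1.80-fold).

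Apoptosis genes on both sides of the balance were higher, 8 of 26, and 2 were lower. The survival genes Bcl2a1a, which has near-identical copies (5.67 to 7.87, 4.61-fold), Bcl2 (9.88 to 11.39, 2.84-fold) and Bcl2l1 (5.77 to 6.95, 2.27-fold) were higher. The death receptor Fas (6.86 to 8.47, 3.05-fold), the executioner Casp6 (6.84 to 8.59, 3.36-fold) and the pro-apoptotic Bid (5.28 to 6.88, 3.04-fold) were higher too. Birc2, an inhibitor of apoptosis (8.28 to 7.28, 1.99-fold), and Pmaip1, which encodes the pro-apoptotic NOXA (7.27 to 6.51, 1.70-fold), were lower.

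Of 15 genes of unresponsive T cells, 1 was higher (6.67%) and 4 were lower (26.7%), with a median of -0.05. Over all genes these shares were 15% and 12.6%, and whether so short a list differs from them was not tested. Nedd4l, a ubiquitin ligase (7.84 to 6.23, 3.05-fold), and Dgka, the kinase that removes diacylglycerol (12.26 to 11.13, 2.18-fold), were lower, and Ndfip1, an activator of such ligases, was higher (9.86 to 10.79, 1.91-fold). Dtx1, of the Notch pathway, was lower (7.03 to 6.24, 1.73-fold).

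Of the 15 genes with the lowest difference, 4 belong to the list of quiescence and homing: Rflnb, S1pr1, Il7r and Cd55. The list was chosen with earlier results of these data known, so this overlap is not a separate result. Rflnb, which encodes refilin B, a partner of filamin that bundles actin, was at 10.24 on the naive array and 5.74 on the iAb array, 22.6-fold lower. The nucleoside transporter Slc28a2b (9.96 to 6.40, 11.8-fold), Tcp11l2 (9.73 to 6.49, 9.45-fold) and the sialyltransferase St8sia6 (10.31 to 7.14, a difference of -3.17) came next beside S1pr1. Tdrp (8.86 to 5.89, 7.84-fold), the ubiquitin ligase Fbxo32 (8.53 to 5.63, 7.43-fold) and Cd55, which restrains complement (9.07 to 6.19, 7.39-fold), followed. The amino acid transporter Slc43a2 (7.86 to 5.07, 6.90-fold), the iron exporter Slc40a1 (7.97 to 5.21, 6.79-fold) and the ubiquitin ligase Rnf125 (11.79 to 9.06, 6.65-fold) were also among the 15. Fam78a (9.04 to 6.33, 6.55-fold), the syntrophin Sntb1 (10.35 to 7.68, 6.35-fold) and Ranbp10 (9.07 to 6.47, 6.08-fold) closed the list. Another probe set of Fam78a differed by -1.05, and the gene read 8.28 on the LatA array. At the edge of the 15 lowest, Ranbp10 differed by -2.60 and Mxd4, just outside, by -2.57. At the edge of the 15 highest, Ccr4 differed by 3.68 and Gbp5, just outside, by 3.63.

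Quiescence and homing genes, a list chosen with earlier results of these data known, had the lowest median of all lists, -1.28. Of 29 compared, 19 were lower and 2 higher. The PI3-kinase inhibitor Pik3ip1 (9.20 to 6.68, 5.77-fold), the antiproliferative Tob1 (9.33 to 7.13, 4.57-fold) and Txnip, which restrains glucose uptake (11.62 to 9.57, 4.12-fold), were lower. Ly6c1 was higher, from below background (3.64 to 6.66, at least 3.18-fold), and the Schlafen genes Slfn2 and Slfn1 differed by -0.04 and -0.19. Of 18 transcription factors of the naive state, 12 were lower and 1 higher (median -0.84). Klf2, which sustains S1pr1 expression (10.99 to 8.64, 5.11-fold), Lef1 of the Wnt pathway (11.93 to 9.68, 4.76-fold) and Foxo1, which sustains Il7r expression (10.42 to 9.59, 1.77-fold), were lower. Klf3 (10.61 to 8.58, 4.07-fold) and Ets1 (11.47 to 10.29, 2.26-fold) were lower as well. Satb1 and Bach2 differed by -0.09 and 0.20, and the member that was higher was Ikzf1 (10.39 to 11.21, 1.76-fold).

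PI3-kinase, AKT and mTOR genes were lower in 10 of 23 and higher in 1. The catalytic subunit Pik3cd (9.51 to 8.62, 1.85-fold), the regulatory subunit Pik3r1 (10.14 to 8.91, 2.35-fold) and the mTOR inhibitor Sesn1 (8.56 to 6.78, 3.43-fold) were lower. Rheb, which activates mTOR, was the member that was higher (8.75 to 9.62, 1.82-fold).

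Autophagy and lysosome genes were lower in 18 of 46 and higher in 0. Atg2a (9.29 to 7.48, 3.52-fold), Atg13 (9.25 to 7.50, 3.36-fold), Ulk1 (9.14 to 7.52, 3.06-fold) and Map1lc3b (9.82 to 8.46, 2.56-fold) take part in autophagosome formation. Ctsd (9.53 to 7.78, 3.35-fold), Lipa (9.97 to 8.73, 2.36-fold), Npc2 (10.32 to 9.13, 2.29-fold) and Ctsb (10.85 to 9.72, 2.20-fold) are lysosomal. Macrophages also express lysosomal genes, and 18 of 23 markers of macrophages and dendritic cells were lower on the same array (median -1.03). Their part in this difference was not tested.

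Of 53 actin and membrane linker genes, 39 lay within the threshold, a share close to the 72.4% of all genes, 5 were higher and 9 lower. Pfn1, which encodes the actin-monomer binder profilin (10.82 to 11.76, 1.91-fold), and Actb (10.31 to 10.97, 1.59-fold) were higher. Beside Rflnb, Stk10 (10.73 to 8.93, 3.47-fold) and Slk (9.71 to 8.99, 1.66-fold), kinases that phosphorylate the linkers of the ERM family, were lower. So were Slc9a3r1, a scaffold that binds those linkers (9.09 to 7.95, 2.21-fold), Wasf2, which starts actin branching (9.69 to 8.34, 2.54-fold), and the GTPase Rac2 (11.71 to 10.37, 2.52-fold). Srf, the serum response factor that reads out actin state, was 2.61-fold higher, and 18 of 23 of the genes in its list were within the threshold. Of 19 sialyltransferase and other glycan genes, 5 were higher, 4 lower and 10 within the threshold. St6galnac4 (6.05 to 8.94, 7.38-fold), St3gal1 (7.18 to 9.77, 5.99-fold) and St3gal4 (5.56 to 6.88, 2.51-fold) were higher. St8sia6, St8sia1 (8.51 to 6.31, 4.60-fold) and St8sia4 (8.86 to 7.81, 2.07-fold), which add sialic acid to sialic acid, were lower.

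Chromatin modifiers had 14 higher and 17 lower of 55. Spin4, a reader of histone methylation, had the largest difference (4.88 to 7.82, at least 7.12-fold) and was higher. The Polycomb methyltransferase Ezh2 was higher (7.61 to 9.26, 3.15-fold) and its paralog Ezh1 lower (9.81 to 8.82, 1.98-fold). Kdm6b, which removes the Polycomb mark (9.85 to 11.26, 2.66-fold), and the DNA methyltransferase Dnmt3a (7.10 to 8.42, 2.51-fold) were higher. The arginine methyltransferases Prmt1 (7.61 to 8.91, 2.47-fold), Prmt5 (9.09 to 10.17, 2.11-fold) and Prmt3 (8.23 to 9.30, 2.10-fold) were higher. The acetyltransferases Kat6b (8.70 to 7.31, 2.63-fold) and Ep300 (9.71 to 8.79, 1.88-fold) and the deacetylase Hdac5 (7.94 to 6.37, 2.96-fold) were lower. Of the mRNA decay factors that bind AU-rich elements, Zfp36l1 was higher (10.61 to 11.62, 2.02-fold) and its paralog Zfp36l2 lower (11.18 to 9.78, 2.65-fold).

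MicroRNAs are shown by their mature products because those of related clusters share seeds, the bases that choose a target. The probe sets read RNA from the gene and do not separate the mature microRNA from its precursor. Of 153 microRNA genes compared, 24 were higher and 23 lower, which is close to the 15% and 12.6% over all genes. The members below were picked after their values were seen. They come from the Mir17 cluster on chromosome 14, from its relative on chromosome X, and from the pair of Mir15b and Mir16-2 on chromosome 3. Mature sequences are from RefSeq on GRCm38.p6, and capitals mark the seed, bases 2 to 8.
miR-17-5p: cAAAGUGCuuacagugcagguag
miR-20a-5p: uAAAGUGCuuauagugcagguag
miR-18a-5p: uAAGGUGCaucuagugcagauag
miR-19a-3p: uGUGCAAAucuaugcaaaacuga
miR-18b-5p: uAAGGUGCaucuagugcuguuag
miR-20b-5p: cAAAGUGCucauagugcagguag
miR-15b-5p: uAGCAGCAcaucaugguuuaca
miR-16-5p: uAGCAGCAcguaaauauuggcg
The seed AAAGUGC is shared by miR-17, miR-20a and miR-20b, AAGGUGC by miR-18a and miR-18b, and AGCAGCA by miR-15b and miR-16, while GUGCAAA is that of miR-19a. On chromosome 14, Mir19a (5.23 to 7.03, 3.48-fold), Mir20a (4.72 to 6.22, at least 2.34-fold), Mir18 (6.74 to 8.04, 2.47-fold) and Mir17 (5.70 to 6.64, 1.92-fold) were all higher. On chromosome X, Mir18b was higher (2.54 to 5.51, at least 1.43-fold) and its neighbour Mir20b lower (5.44 to 4.07, at least 1.51-fold). The former was below background in naive T cells and the latter with iAb, and Mir20b also read 4.27 on the LatA array. On chromosome 3, Mir15b (6.55 to 4.79, at least 3.25-fold) and Mir16-2 (8.16 to 6.80, 2.55-fold) were lower. So was Smc4, the gene that holds both (11.38 to 9.92). Mir15a and Mir16-1, the copies with the same seed in Dleu2, differed by 0.09 and -0.22. In a list of microRNAs known from T cells, 13 of 26 were compared, and Mir181a-2 (4.79 to 5.88, at least 1.85-fold) and Mir212 (5.41 to 6.15, 1.67-fold) were the higher members outside the Mir17 cluster.

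Some genes crossed background between the arrays. Of 699 genes below background on the naive array only, 135 were at least 1.5-fold higher, and 71 still were when set against the background value. The largest of these differences were those of Tnfsf14, Il2, Csf2, Ifng and Ly6c1, given above, and of Akr1c18, which breaks down progesterone (3.68 to 7.74, at least 6.71-fold), Utf1, a chromatin protein of stem cells (4.45 to 7.71, at least 6.60-fold), and Cyp11a1, which starts steroid synthesis (4.83 to 7.93, at least 7.67-fold). Cyp11a1 read 5.27 with sAb and 5.54 with sAb+LatA at 3 h and 5.19 with iAb at 24 h, and a dimmer probe set differed by 1.43 between iAb at 3 h and naive. Of 360 genes below background on the iAb array only, 125 were lower, 54 of them also when set against background. Rab6b, a GTPase of Golgi traffic (6.84 to 4.30, at least 3.97-fold), and Slc6a19, an amino acid transporter (6.71 to 4.35, at least 3.65-fold), led these. Another probe set of Rab6b differed by 0.01, so its difference is uncertain. Next came Cd5l, a macrophage protein (6.30 to 4.69, at least 2.73-fold), the GTPase Rab4a (5.78 to 4.20, at least 1.91-fold) and the oxysterol enzyme Cyp39a1 (5.11 to 3.69), then Cep72 (6.12 to 4.73, at least 2.42-fold), H2aw (5.99 to 4.70, at least 2.20-fold) and Zscan2 (5.93 to 4.66, at least 2.12-fold). The naive value of Cyp39a1 was close to the background of that array, 4.99, so its difference is uncertain.

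Markers of other cell types were examined because removal of other cells with beads can leave some behind. Macrophage and dendritic cell genes were lower with iAb, 18 of 23 compared and 0 higher. Hmox1, the heme oxygenase of red pulp macrophages, read 9.52 with naive cells, 9.17 with LatA, 7.58, 7.20 and 7.21 with sAb, sAb+LatA and iAb at 3 h, and 4.20 with iAb at 24 h. The complement gene C1qb read 8.94, 8.70, 7.59, 7.14, 7.31 and 4.67 in the same order. The lower value thus appears with each of the 3 ways of stimulation at 3 h. Of 27 genes in the list, 21 were above background on the naive array and 21 on the iAb array, and their summed linear intensity was 4580 and 2180. Slc40a1, among the 15 lowest genes, and Vcam1 (3.22-fold lower) belong to that list, and the part of other cells in their differences was not tested. Defining genes of dendritic cells, Xcr1 and Flt3, read 4.96 and 4.56 on the naive array, at or under background. Of B cell genes, 6 of 13 were compared, 1 was higher and 1 lower, and Cd79a read 5.53 and 5.29. None of 14 neutrophil and mast cell genes was above background on either array. Of 6 NK cell genes compared, Cd160 and Eomes, which activated T cells also express, were higher and Tyrobp, also a myeloid gene, was lower (6.21 to 5.10, 2.17-fold). Of 15 marker genes of regulatory and memory T cells, 5 were higher and 2 lower, with a median of -0.03. Gpr83, a receptor known from regulatory T cells, was 8.40-fold higher (5.23 to 8.30), and Cd44, the adhesion receptor of antigen-experienced cells, 2.06-fold. Ctla4, of the same list, was 2.07-fold lower.

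**Figure D4:**
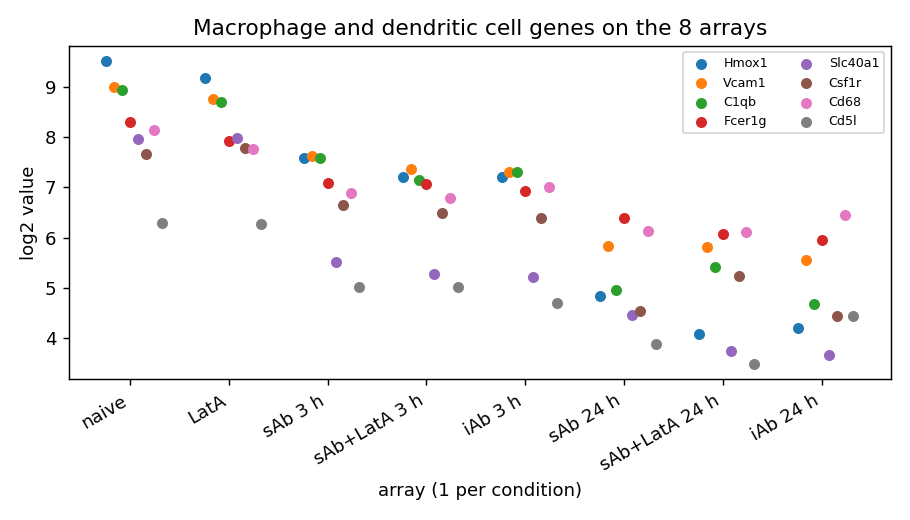
Log2 values of 8 macrophage and dendritic cell genes (colours) on each of the 8 arrays (x axis, 1 array per condition). On the 3 antibody arrays of 3 h each gene lies below its value on the naive and LatA arrays.

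Placed side by side, the lists ran from quiescence and homing, myeloid markers and naive-state transcription factors at the lower end to ribosome biogenesis and guanylate-binding proteins at the upper end. Lists near the middle often held large differences of both signs, such as chemokine receptors, with Ccr4 and S1pr1, and G1 regulators, with Ccnd2 and Cdkn1b.

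**Figure D5:**
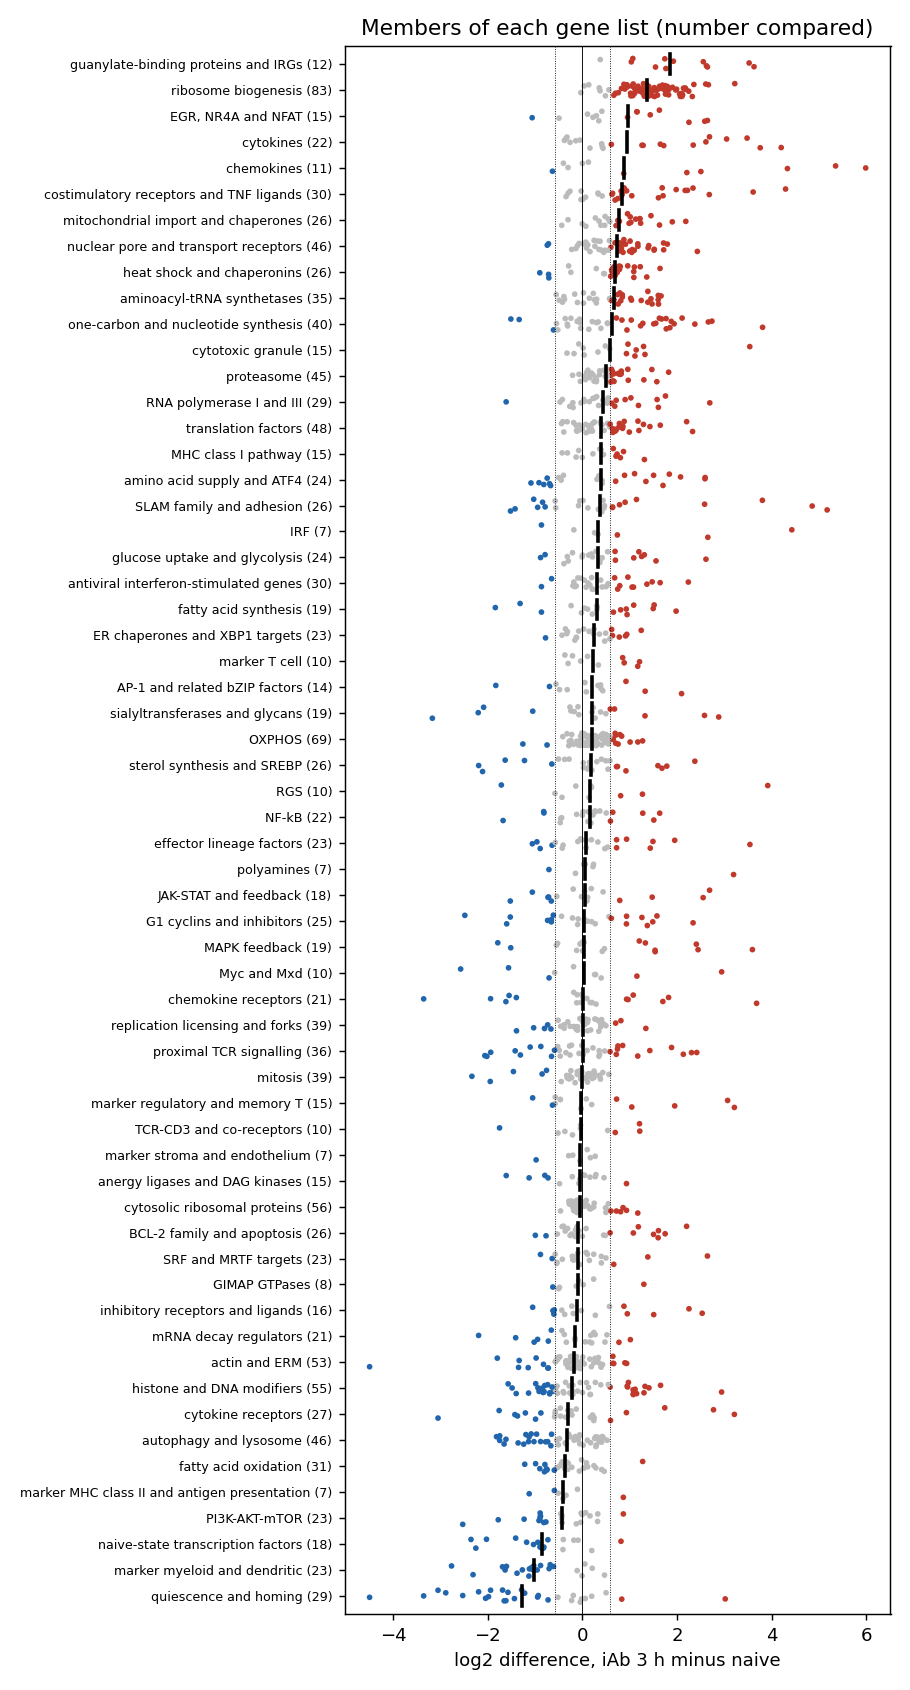
Log2 difference, iAb at 3 h minus naive, of every member compared (points) in each gene list with at least 7 such members, microRNA genes left out, ordered by the list median (black bars), with the number compared in brackets. Red points are at least 1.5-fold higher, blue points at least 1.5-fold lower, grey points within that threshold (dotted lines), and medians run from -1.28 to 1.85.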

How the data were processed

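Total RNA of 8 samples of mouse CD3+ T cells was labelled with biotin and hybridised to Affymetrix whole-transcript mouse gene arrays, 1 array per condition. The values deposited by the authors are log2 signals per probe set after robust multi-average normalisation of the arrays. This step pulls the arrays to a common distribution, so a shift of most genes in 1 direction would not be seen. The software version is not given in the sources used here.

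Of 41345 probe sets, 23521 carry 1 gene symbol in the platform annotation, 1820 several and 16004 none, and those with 1 symbol were kept. Where a gene had more than 1 probe set (1082 genes), the brightest on average stood for it. A gene was compared when it exceeded, on at least 1 of the 2 arrays, the 95th percentile of 1443 chemosensory receptor genes of that array, and it was called higher or lower at 1.5-fold. No test was run, as there is 1 array a side.

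The members and the 65 gene lists were chosen with earlier results of these data known. The text names the genes with the 15 most positive and 15 most negative differences and the 8 largest on each side among genes that crossed background. It also names up to 6 members of each list by size of difference, and other members where their role completes a group. Predicted genes, receptor segments, microRNAs, small nuclear and nucleolar RNAs and pseudogenes were left out of the ranking.

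Promoters and mature microRNAs came from RefSeq (GRCm38.p6), with the first listed promoter of a gene. The counting was tested on simulated data with planted changes. Alternatives were the filter, background, scaling, threshold, probe set and reference array. Python 3.11.15, numpy 2.4.6, pandas 2.3.3 and matplotlib 3.10.9 were used.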

Additional observations from a re-analysis of the deposited data

Results flagged for a closer look

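Some genes of the lists were past 1.5-fold in 1 direction after 3 h of iAb. On the iAb array of 24 h they were past it in the other direction. The cells of 24 h had been washed after 3 h on the antibodies and cultured further, so their array does not read 24 h of continuous stimulation. Both differences share the naive array, each time has 1 array, and the change of direction was not tested. Unless stated otherwise, the values below are the differences from naive T cells at 24 h on the log2 scale.

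Among genes that were higher at 3 h, several regulators stood below naive T cells at 24 h. The transcription factors were Nr4a2 (-2.67), Atf3 (-1.19) and Egr2 (-0.59), with the NF-kB inhibitor Nfkbid (-0.66) and the demethylase Kdm6b (-1.38). The surface genes were Ccr8 (-2.50), Vsir (-1.11) and Tnfsf11 (-1.08). Prf1 was at -0.93, the kinase inhibitor Errfi1 at -0.64 and the mRNA decay factor Zfp36l1 at -0.60. The microRNA gene Mir212 was at -0.72 and the carbonic anhydrase Car2 at -0.80. At 3 h, Errfi1 and Car2, not named above, had differed by 1.54 and 1.52.

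Among genes that were lower at 3 h, several of division stood above naive T cells at 24 h. The condensin subunit Ncapd2 was at 2.04, Racgap1 at 2.01, the helicase subunit Mcm7 at 1.88 and the kinetochore gene Ndc80 at 0.67. Cenpa and Smc4, also lower at 3 h, stayed below naive T cells at 24 h (8.76 and 7.48 for Cenpa, 11.38 and 11.02 for Smc4). The MHC class II chaperone gene H2-Oa, also not named above, was at 0.68. Its difference at 3 h was -0.59, but -0.46 with the LatA array as reference, within the threshold, so its change of direction is uncertain.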

How the results depend on the processing

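Under the alternatives other than the threshold itself, the count of genes that were higher ranged from 1694 to 1975 and the count of genes that were lower from 1319 to 1817. With a 2-fold threshold these counts were 882 and 587. Of 351 named genes past 1.5-fold, 15 no longer reached it under at least 1 alternative of scaling, probe set or reference array. Most of these were lost with the LatA array as reference, among them Mafk, Rgs1, Hspa5 and Rps27l. With that reference, the differences of 103 of the 391 named genes moved by at least 0.23 on the log2 scale, and 288 did not. No named gene changed direction past the threshold under the same alternatives. The filter, background and threshold alternatives were not applied to single genes, so named genes below background on 1 array were not tested against them. Of the list medians computed under the alternatives, 488 lay within 0.23 of the reported value, the spread of LatA minus naive over genes, and 24 did not. With 1 array a condition, array quality and sample differences cannot be separated from the response, and genes near background carry the least certain values. No paired analysis was possible because each group has 1 array.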
